A study of Mus musculus with 7 samples.

Results

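The 10 genes described here mark dendritic cells or control their development, and they were measured in RNA from tumour-associated macrophages. They were chosen by name, with no use of their measured values but with earlier results of these data known. The genes are Flt3, Zbtb46, Xcr1, Clec9a, Batf3, Irf8, Itgae, Cd209a, Ccr7 and Fscn1. These are 10 of the 53379 genes in the deposited count table, and all 10 had enough reads to be tested. The groups were 3 Gpr65-knockout (KO) and 4 Gpr65-wild-type (WT) C57BL/6J mice, 1 library per mouse. Gpr65 encodes a cell-surface receptor that senses extracellular protons. Mice of both genotypes were fed a high-fat diet and carried tumours of MC38, a mouse colon carcinoma line, for 21 days. The cells were sorted as CD45, CD11b and F4/80 positive, so every library is a bulk measurement of 1 gate. The way the Gpr65 allele was made, the cells that lack it, and the age and sex of the mice are not given in the sources used here.

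Dendritic cells take up antigen and present it to T cells. Conventional dendritic cells depend on the receptor tyrosine kinase Flt3 and express the zinc-finger factor Zbtb46. A first subset, cDC1, needs the transcription factors Batf3 and Irf8, carries Xcr1, Clec9a and often the integrin chain Itgae (CD103), and is known for presenting tumour antigen to CD8 T cells. A second subset, cDC2, and dendritic cells derived from monocytes carry other lectins, among them Cd209a. On maturation both subsets gain the chemokine receptor Ccr7 and the actin-bundling protein Fscn1 (fascin) and migrate to lymph nodes. Most cDC1 carry little CD11b or F4/80, whereas monocyte-derived dendritic cells share both with macrophages. Several of the 10 genes are also used by other cells: Irf8 by macrophages, monocytes and B cells, Itgae and Ccr7 by T cells, Zbtb46 by endothelium, and Fscn1 by many tumour cells.

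Libraries held between 22449772 and 30483733 counts. Gpr65 measured 0.683, 0.976 and 1.10 CPM (counts scaled to the library size with the TMM method) in KO mice 1 to 3, against 93.4, 112, 92.6 and 65.2 CPM in WT mice 1 to 4 (edgeR adjusted p = 8e-05), as the labels say. The markers of the gate were present in every library. Adgre1, which encodes F4/80, ranged between 495 and 1332 CPM in KO and between 327 and 661 CPM in WT libraries, Itgam (CD11b) between 196 and 204 CPM in KO and between 121 and 293 CPM in WT, and Ptprc (CD45) between 498 and 922 CPM in KO and between 584 and 718 CPM in WT. The summed level of 12 macrophage markers, led by Lyz2 and C1qb, was 25810 to 49460 CPM in KO and 26390 to 31740 CPM in WT libraries. KO 1 stood apart from the other libraries. Its score on the first principal component of the 500 most variable genes (44.2% of their variance) was -68.5, with the others between -2.3 and 28, and it had 0 counts in 940 tested genes, against 51 to 281 in the others.

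No gene of the 10 passed an edgeR adjusted p of 0.05 between KO and WT macrophages. Among all 16234 tested genes 6 passed (0.037%), 4 higher (0.0246%) and 2 lower (0.0123%) in KO. The genes of the cDC1 group, apart from Itgae, had higher means in KO mice (Xcr1, Clec9a, Batf3 and Irf8), and the other 6 had lower means (Flt3, Zbtb46, Itgae, Cd209a, Ccr7 and Fscn1). The median log2 fold change, KO over WT, was -0.54 over the 10 genes and -0.0016 over all tested genes, of which 49.7% had a positive value. Of the 10, 2 had an unadjusted edgeR p under 0.05, as did 871 of all tested genes (5.37%). These were Xcr1, higher in KO as 2.57% of all tested genes were at that level, and Itgae, lower in KO as 2.79% were. On TMM-scaled CPM, Xcr1 and Clec9a were the 2 genes whose KO and WT libraries did not overlap, both higher in KO. For Clec9a this held only after scaling. Of all tested genes 454 (2.8%) were higher without overlap. None of the 10 was lower without overlap, as 540 tested genes were (3.33%).

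**Figure D1:**
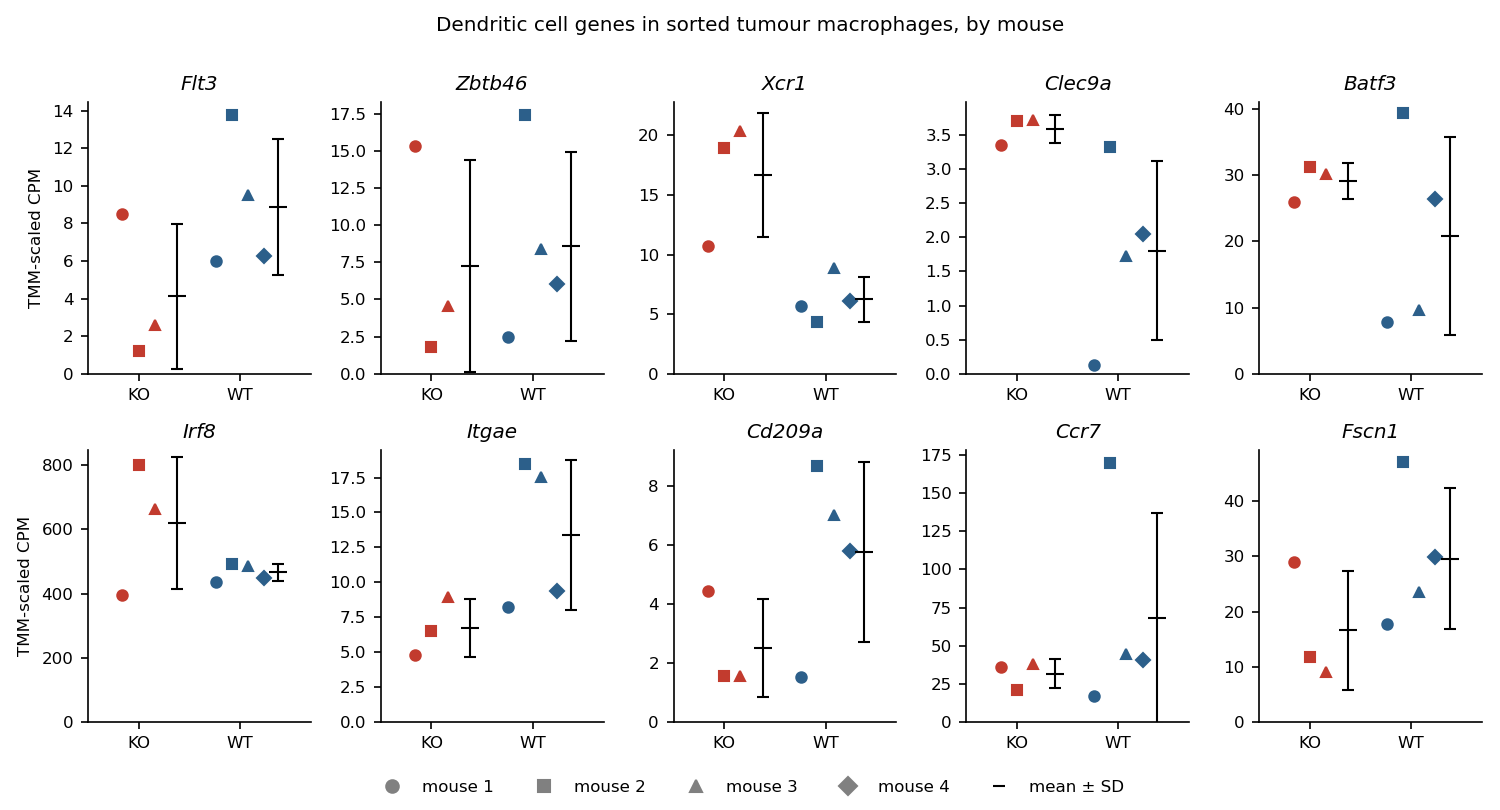
TMM-scaled CPM of each of the 10 dendritic cell genes (vertical axes start at 0) in 3 KO mice (red, left) and 4 WT mice (blue, right), with the mouse number by symbol and the group mean ± SD beside the points (the bar of Ccr7 in WT runs below 0 and is cut there). KO and WT points do not overlap for Xcr1 and Clec9a, and WT 2 is the highest library for 7 of the 10 genes.

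The 5' flanks of the 2 genes without overlap after scaling, Xcr1 and Clec9a, are shown with that of Cd209a, which had the most negative fold change of the 10. Each sequence runs 5' to 3' on the strand of the gene, from 250 bases before to 50 bases after the transcription start, as RefSeq gives it on GRCm38.p6. Windows were found for 8 of the 10 genes. Motifs were searched on both strands. The first was TGANTCA, bound by AP-1 factors, the family that holds Batf3. Another was the ETS-IRF composite, GGAA and GAAA with 2 free bases between them, bound by ETS factors together with Irf8 or Irf4. The last was the core of the interferon-stimulated response element, GAAA and GAAA with 2 free bases between them, which can overlap the composite. Capitals mark a match.
Xcr1 (chr9:123861980-123862279, minus strand): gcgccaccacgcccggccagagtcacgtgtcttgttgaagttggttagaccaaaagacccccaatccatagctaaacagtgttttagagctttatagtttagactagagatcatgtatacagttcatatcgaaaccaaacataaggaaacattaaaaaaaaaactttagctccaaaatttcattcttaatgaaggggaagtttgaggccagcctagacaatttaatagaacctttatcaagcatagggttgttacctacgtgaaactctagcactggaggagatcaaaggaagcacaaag
Clec9a (chr6:129408612-129408911, plus strand): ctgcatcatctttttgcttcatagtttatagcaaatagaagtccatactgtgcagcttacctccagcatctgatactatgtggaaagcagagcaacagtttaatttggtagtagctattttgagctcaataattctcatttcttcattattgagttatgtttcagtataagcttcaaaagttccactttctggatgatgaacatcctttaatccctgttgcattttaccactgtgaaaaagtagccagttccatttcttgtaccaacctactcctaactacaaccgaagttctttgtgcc
Cd209a (chr8:3748935-3749234, minus strand): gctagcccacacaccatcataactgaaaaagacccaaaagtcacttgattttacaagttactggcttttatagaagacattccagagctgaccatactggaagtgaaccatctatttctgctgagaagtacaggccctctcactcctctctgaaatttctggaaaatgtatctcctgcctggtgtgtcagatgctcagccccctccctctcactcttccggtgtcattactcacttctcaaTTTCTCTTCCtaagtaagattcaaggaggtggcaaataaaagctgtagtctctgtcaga
The Cd209a window held 1 match to the ETS-IRF composite, on the opposite strand, ending at the first transcribed base. The windows of Xcr1 and Clec9a held none of these letters. Zbtb46 had 1 match to the AP-1 motif, and no other window of the 10 genes had a match. That Zbtb46 window (chr2:181424339-181424638, minus strand) lies inside the annotated gene, whose 5' end is at 181459426. Its match is therefore not in the flank of the full-length gene. Among 32851 windows of 300 bases the AP-1 motif occurred in 7.81%, the ETS-IRF composite in 2.72% and the response element core in 3.44%. A match is a string of letters, and binding was not measured.

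Xcr1 is the chemokine receptor by which cDC1 follow Xcl1, a product of NK cells and CD8 T cells. The gene lies on chromosome 9 (123852315 to 123862029, minus strand, GRCm38). It measured 10.7, 18.9 and 20.4 CPM in KO mice 1 to 3, against 5.66, 4.32, 8.86 and 6.10 CPM in WT mice 1 to 4. Every KO library lay above every WT library, with KO 1 nearest to the WT range. The means were 16.7 ± 5.23 CPM in KO (SD, n = 3) and 6.24 ± 1.91 CPM in WT (SD, n = 4). The log2 fold change was 1.42 (SE 0.32), the unadjusted p 0.00176 and the edgeR adjusted p 0.657, and by unadjusted p it ranked 38 of 16234 genes. DESeq2 gave the same log2 fold change of 1.42 with an adjusted p of 0.0155 and so called the gene, 1 of 131 called among 18208 (0.719%). Over all 17 alternatives the adjusted p ran between 0.0155 and 1. By edgeR it was 0.0886 without KO 1 but 1 without KO 2 or without WT 4 and 0.932 without WT 1, and by limma voom it was 0.122. Its ligand gene Xcl1 measured 4.27, 0.854 and 14.9 CPM in KO and 1.37, 1.74, 3.19 and 14.4 CPM in WT mice, with overlapping groups.

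Clec9a encodes the cDC1 lectin that binds actin filaments exposed by dead cells (chromosome 6, 129408862 to 129424763, plus strand). It was the lowest of the 10 genes per length, with 91 to 101 counts in KO libraries and 3 to 86 in WT libraries. These counts gave 3.35, 3.70 and 3.71 CPM in KO mice 1 to 3, against 0.125, 3.32, 1.73 and 2.05 CPM in WT mice 1 to 4. The KO libraries lay close together and only just above WT 2, while WT 1 was far below the rest with 3 counts. KO over WT, this was a log2 difference of 0.99 (SE 0.76) that did not pass (edgeR adjusted p = 1), and it was 0.58 without WT 1 and 1.46 without WT 2. By limma voom, which weights libraries, it was 2.04 (adjusted p = 0.446). KO 2 had 91 Clec9a counts of 30483733 and WT 2 had 86 of 27600735. Per total count KO 2 lay below WT 2. The lack of overlap thus rested on the scaling factors, 0.807 for KO 2 and 0.94 for WT 2. Clec9a shares 184 exon bases with its neighbour Clec1b on the same strand, which held 140 counts over all libraries beside 487 for Clec9a, and reads from those bases cannot be assigned to 1 of the genes.

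Batf3, an AP-1 family factor that cDC1 need to develop (chromosome 1, 191097847 to 191108945, plus strand), measured 25.9, 31.2 and 30.2 CPM in KO mice, against 7.82, 39.3, 9.62 and 26.4 CPM in WT mice. The WT mice fell into a low pair, WT 1 and WT 3, and a high pair, WT 2 and WT 4, and the KO mice lay among the high ones. Its fold change of 0.48 on the log2 scale (SE 0.51) did not pass (edgeR adjusted p = 1), and it was 0.18 without WT 1, 0.22 without WT 3 and 0.99 without WT 2. By limma voom it was 1.32 (adjusted p = 0.344).

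Irf8, the factor that sets the cDC1 fate and also acts in monocytes and macrophages, was the most abundant of the 10 (chromosome 8, 120736358 to 120756694, plus strand). It measured 395, 799 and 663 CPM in KO mice, against 436, 492, 485 and 449 CPM in WT mice. WT libraries differed little, KO 2 and KO 3 lay above all of them and KO 1 below all of them. The means were 619 ± 206 CPM in KO (SD, n = 3) and 466 ± 27.3 CPM in WT (SD, n = 4). On the log2 scale KO over WT was 0.41 (SE 0.24) with an edgeR adjusted p of 1, 0.64 without KO 1 (edgeR adjusted p = 0.234) and 0.18 without KO 2 (edgeR adjusted p = 1). For Spi1 (PU.1), an ETS factor that binds DNA together with Irf8, the log2 value was 0.08 (SE 0.17), and for Irf4, the related factor of cDC2, it was 0.22 (SE 0.64).

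Itgae encodes the alpha-E chain that pairs with Itgb7 and binds E-cadherin (chromosome 11, 73090583 to 73147446, plus strand). It measured 4.82, 6.51 and 8.93 CPM in KO mice, against 8.24, 18.5, 17.5 and 9.36 CPM in WT mice. WT 2 and WT 3 were high, and the groups overlapped only through KO 3, which lay above WT 1. The means were 6.75 ± 2.07 CPM in KO (SD, n = 3) and 13.4 ± 5.35 CPM in WT (SD, n = 4). KO over WT came to -0.99 on the log2 scale (SE 0.37), with an unadjusted edgeR p of 0.0268 and an edgeR adjusted p of 0.90. Haspin lies within Itgae on the opposite strand with 2907 counts beside 2005 for Itgae, and they share 0 exon bases. The direction was the opposite of that of the other 4 genes of the cDC1 group. Itgb7 measured 82.4, 212 and 178 CPM in KO and 117, 267, 200 and 174 CPM in WT mice, with a log2 fold change of -0.27 (SE 0.36). Cdh1 (E-cadherin) measured 93.4 ± 66.2 CPM in KO (SD, n = 3) and 267 ± 163 CPM in WT (SD, n = 4), a log2 difference of -1.51 (SE 0.61) that did not pass.

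Markers of T and NK cells, which can also carry Itgae and Ccr7, were read beside these genes. The summed level of 11 T cell markers was 20.7, 74.0 and 498 CPM in KO mice, against 35.8, 89.3, 128 and 104 CPM in WT mice. It was lowest in KO 1, which had 0 counts for Cd8a and 0.444 CPM of Cd3e, and highest in KO 3, with 86.6 CPM of Cd8a and 49.9 CPM of Cd3e. Of 10 tested T cell markers 8 had a positive log2 fold change and none passed. The 7 NK markers, led by Prf1 and Gzma, summed to 3.49 to 134 CPM in KO and 4.49 to 52.6 CPM in WT libraries. Among KO mice Itgae had the same order as the T cell sum. Among WT mice the orders differed, with the T cell sum highest in WT 3 and Itgae highest in WT 2, and KO 3, with the highest sum of all, had less Itgae than WT 2, WT 3 and WT 4. In such bulk RNA fewer cells of a type and less RNA per cell cannot be told apart.

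**Figure D2:**
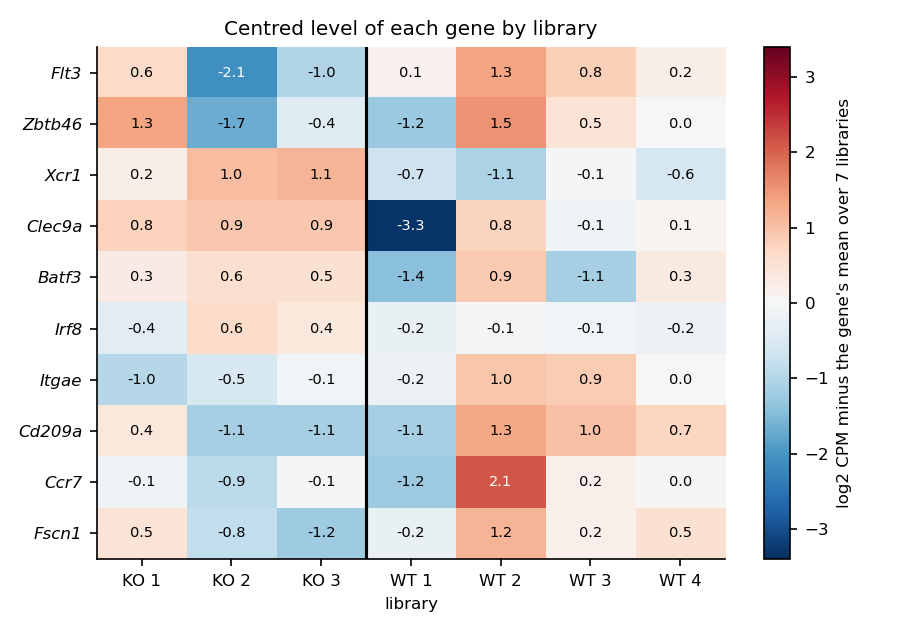
Log2 CPM of each gene minus its own mean over the 7 libraries (colour and printed value), for KO 1 to 3 left of the line and WT 1 to 4 right of it. Flt3, Zbtb46, Cd209a and Fscn1 are high in KO 1 and WT 2 and low in KO 2, whereas Xcr1 is lowest in WT 2 and highest in KO 3.

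Flt3, the receptor for the growth factor Flt3l (chromosome 5, 147330741 to 147400489, minus strand), measured 8.51, 1.22 and 2.61 CPM in KO mice, against 5.99, 13.8, 9.49 and 6.29 CPM in WT mice. KO 2 and KO 3 lay below every WT library, and KO 1 lay inside the WT range. The means were 4.11 ± 3.87 CPM in KO (SD, n = 3) and 8.89 ± 3.62 CPM in WT (SD, n = 4). Flt3 had a log2 value of -1.11 for KO over WT (SE 0.62) with an edgeR adjusted p of 0.997, of -2.22 without KO 1 (edgeR adjusted p = 0.173) and of -0.68 without KO 2 (edgeR adjusted p = 1). Flt3l measured 5.21 ± 2.25 CPM in KO (SD, n = 3) and 5.0 ± 1.61 CPM in WT (SD, n = 4).

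Zbtb46 represses genes of other myeloid fates in conventional dendritic cells (chromosome 2, 181387762 to 181459426, minus strand). It measured 15.3, 1.83 and 4.56 CPM in KO mice, against 2.5, 17.4, 8.40 and 6.07 CPM in WT mice. The spread within each genotype was far larger than the difference of the means, with KO 1 and WT 2 high and KO 2 and WT 1 low. Its log2 value of -0.24 (SE 0.76) did not pass (edgeR adjusted p = 1), and it turned positive without KO 2 (0.21) and without WT 2 (0.36), while it was -1.44 without KO 1. Zbtb46 is also an endothelial gene. Endothelial markers summed to 32.7 to 58.0 CPM in KO and 31.7 to 165 CPM in WT libraries, led by Pecam1, which macrophages can express, and Kdr. Pecam1 was highest in WT 2 at 163 CPM, where Zbtb46 was highest too, while Kdr was lowest there at 0.965 CPM. Cdh5 measured 4.10, 0.651 and 1.29 CPM in KO and 1.33, 0.424, 0.4645 and 1.32 CPM in WT mice. It was highest in KO 1, where Zbtb46 was also high, and lowest in WT 2, where Zbtb46 was highest. Cldn5 had 0 counts in all libraries, and Tek and Emcn were at 0.0814 CPM or less. The sort for CD45 was meant to leave out endothelial cells, and their part in the Zbtb46 values was not tested.

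Cd209a, a C-type lectin of the DC-SIGN family (chromosome 8, 3743397 to 3748984, minus strand), measured 4.44, 1.55 and 1.54 CPM in KO mice, against 1.54, 8.68, 7.0 and 5.81 CPM in WT mice. WT 2, WT 3 and WT 4 lay above all KO mice, and WT 1 was as low as KO 2 and KO 3. The means were 2.51 ± 1.67 CPM in KO (SD, n = 3) and 5.76 ± 3.05 CPM in WT (SD, n = 4). KO over WT was -1.19 on the log2 scale (SE 0.63) with an edgeR adjusted p of 0.988, -1.92 without KO 1 (edgeR adjusted p = 0.371) and -0.93 without WT 2 (edgeR adjusted p = 1). Other monocyte-derived cells share the gate. Monocyte markers summed to between 391.8 and 830 CPM in KO and 896 to 4262 CPM in WT libraries, and all 9 tested had a negative log2 fold change, none passing. In this list Ccr2, the receptor that brings monocytes into tissue, measured 489, 428 and 294 CPM in KO and 872, 792, 621 and 625 CPM in WT mice (log2 fold change -0.85, SE 0.23, edgeR adjusted p = 0.73), and Chil3 was highest in WT 2 at 3241 CPM. The part of monocytes in the Cd209a values was not tested.

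Ccr7 guides mature dendritic cells along Ccl19 and Ccl21 to lymph nodes (chromosome 11, 99144196 to 99155077, minus strand). It measured 36.1, 20.8 and 37.9 CPM in KO mice, against 16.7, 169.5, 44.5 and 40.6 CPM in WT mice. WT 2 lay far above every other library, WT 1 was the lowest of all, and the groups overlapped. KO over WT was -1.10 on the log2 scale (SE 0.68, edgeR adjusted p = 1), without WT 2 it was -0.10, and without WT 1 it was -1.45. Ccl19 and Ccl21a had 0 counts in all 7 libraries. So had Jund, which most cells express, so a 0 in this table does not show that a gene was silent.

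Fscn1, which bundles actin in the processes of mature dendritic cells (chromosome 5, 142960343 to 142973185, plus strand), measured 29.0, 11.8 and 9.01 CPM in KO mice, against 17.7, 47.1, 23.6 and 30.0 CPM in WT mice. KO 2 and KO 3 lay below all WT mice and KO 1 lay among them. This gave -0.83 on the log2 scale (SE 0.46) with an edgeR adjusted p of 0.997, -1.53 without KO 1 (edgeR adjusted p = 0.234), -0.51 without WT 2 and -0.54 without KO 3. Tumour and stromal cells, which the sort for CD45 was meant to leave out, can also carry Fscn1. The list of 7 MC38 and epithelial markers summed to 168, 42.0 and 78.0 CPM in KO and 126, 380, 137 and 451 CPM in WT mice, most of it Cdh1, while Epcam reached 5.30 CPM at most and Krt18 4.42 CPM. Fibroblast markers, led by Col3a1 and Dcn, summed to 301, 132.5 and 37.7 CPM in KO and 124, 133, 217 and 328 CPM in WT mice. Among KO mice this sum had the same order as Fscn1, and among WT mice the orders differed. Of 6 tested fibroblast markers 5 had a negative log2 fold change and none passed. The part of tumour and stromal cells in the Fscn1 values was not tested.

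**Figure D3:**
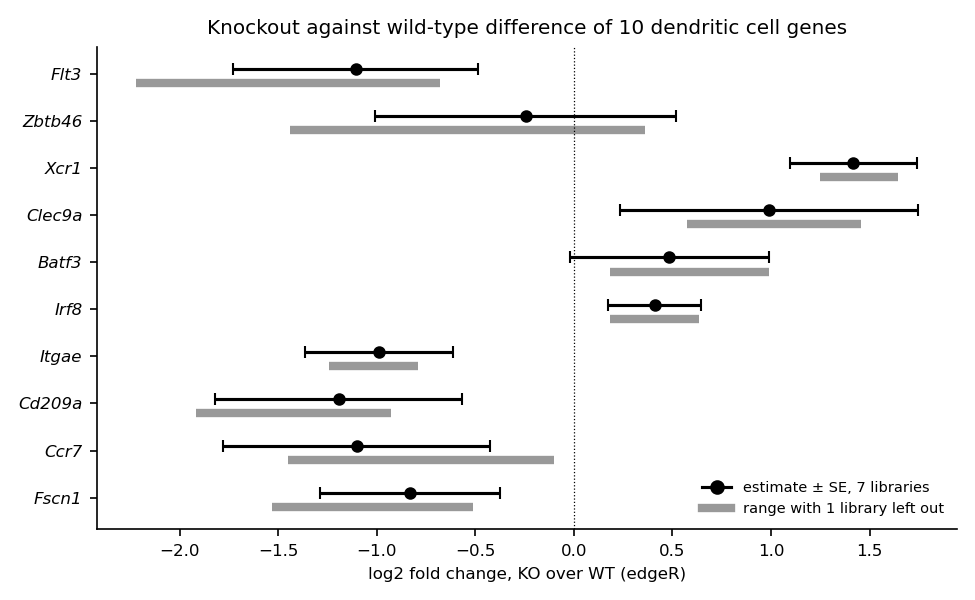
Log2 fold change of each gene, KO over WT, from edgeR on 7 libraries (point, with its SE as the bar) and the range of the same value when each library was left out in turn (grey). The ranges of Xcr1 (1.25 to 1.64), Clec9a, Batf3 and Irf8 stay above 0. Those of Flt3, Itgae, Cd209a, Ccr7 and Fscn1 stay below 0, and that of Zbtb46 crosses 0. None of the 10 passed the adjusted threshold.

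Across the 7 libraries the 10 genes did not vary as 1 group. WT 2 had the highest level of 7 genes (Flt3, Zbtb46, Batf3, Itgae, Cd209a, Ccr7 and Fscn1), and of 16.4% of all tested genes. WT 1 had the lowest level of 4 genes (Clec9a, Batf3, Cd209a and Ccr7), and of 10.5% of all tested genes. Likeness of pattern was measured as the root mean square difference of centred log2 CPM over the 7 libraries, where 0 is an identical pattern. Among the 10, the closest pairs were Cd209a with Fscn1 (0.488), Flt3 with Fscn1 (0.575) and Xcr1 with Irf8 (0.599). The most unlike were Flt3 with Clec9a (1.93) and Flt3 with Xcr1 (1.79), although both of these pairs join genes of conventional dendritic cells. The measure also depends on how widely each gene varies, and pairs among the 10 were not matched for this. Clec9a varied most (SD of 1.53 in log2 CPM), with 3 counts in WT 1.

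Outside the 10, the genes nearest in pattern were sought among tested protein-coding genes of similar variance. For Xcr1 these were Spn (0.144), which encodes the leukocyte surface protein CD43, and Gramd3 (0.199). For Itgae they were Btla (0.253), an inhibitory receptor of lymphocytes and dendritic cells, and Thbd (0.290), which encodes thrombomodulin. Ccr7 was nearest to Cd200 (0.303) and B3gnt5 (0.363), Zbtb46 to Ctf2 (0.474) and Cacnb3 (0.499), Flt3 to Tbc1d2 (0.392) and Map3k6 (0.471), Fscn1 to Ptgfrn (0.241) and Adora2b (0.249), and Cd209a to Siglecg (0.370) and Tiam2 (0.475). Batf3 was nearest to Pik3ip1 (0.272) and Siglecf (0.323), and Irf8 to Phf20 (0.0653) and Galnt7 (0.0690). Clec9a had no near neighbour, the closest being Serpina3g (0.838) and Clec1a (0.903). With so many genes and 7 libraries, near patterns are a description of these libraries.

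Levels were compared between genes as CPM per kb of annotated exon. Irf8 was first at 75.3 ± 20.6 CPM per kb (SD, n = 7), followed by Ccr7 at 26.4 ± 26.7, Batf3 at 15.2 ± 7.24 and Fscn1 at 7.98 ± 4.31 CPM per kb. Below these came Cd209a at 2.76 ± 1.85, Xcr1 at 2.40 ± 1.46, Itgae at 2.30 ± 1.16, Flt3 at 1.11 ± 0.688, Zbtb46 at 0.942 ± 0.722 and Clec9a at 0.780 ± 0.406 CPM per kb. Fscn1 and Cd209a were the 1 pair of neighbours that kept their order in 7 of 7 libraries. Irf8 exceeded Ccr7 in 6 libraries, with WT 2 the exception. The levels of Cd209a, Xcr1 and Itgae did not separate: Cd209a exceeded Xcr1 in 4 libraries, and Xcr1 exceeded Itgae in 3, all of them KO. By genotype, Xcr1 was at 3.74 ± 1.17 CPM per kb in KO (SD, n = 3) and 1.40 ± 0.428 in WT (SD, n = 4), and Itgae at 1.47 ± 0.452 in KO (SD, n = 3) and 2.92 ± 1.17 in WT (SD, n = 4).

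**Figure D4:**
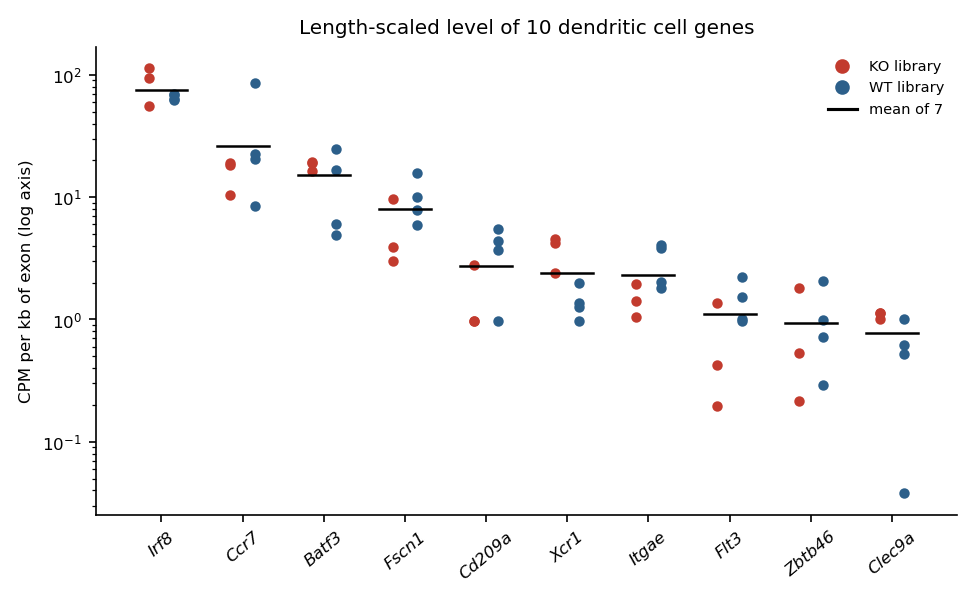
Level of each gene in CPM per kb of exon (log axis) in KO libraries (red, left) and WT libraries (blue, right), with the mean of 7 libraries as a line. Irf8 is the highest by mean, the genes from Cd209a to Clec9a lie near or below 3 CPM per kb on average, and Clec9a in WT 1 is the lowest value.

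Further genes of the same biology were read from lists, 75 genes beyond the 10, of which 66 were tested. None passed, with 0.736 the smallest edgeR adjusted p, and by unadjusted p under 0.05 there were 10 (15.2%, against 5.37% of all tested genes). Higher in KO at that level were Id2, Cxcl9, Cadm1, Tlr3, Bst2 and Runx2. Lower were Cd24a, Il1r2, Cd207 and Cdh1, the last from the list of ligands and partners. The lists were chosen with earlier results of these data known, so the share is a description. Of the 66 tested genes 38 had positive and 28 negative log2 fold changes, with a median of 0.07. Groups without overlap were found for 3 of them (4.55%, against 6.12% of all tested genes), Runx2 higher and Il1r2 and Cd207 lower in KO.

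In the list of other cDC1 genes, 12 were tested, 7 positive and 5 negative, with a median log2 fold change of 0.36 and none called. Among its highest, Id2, a repressor that cDC1 development needs, measured 375, 516 and 625 CPM in KO and 324, 378, 337 and 352 CPM in WT mice (log2 fold change 0.54, SE 0.20, edgeR adjusted p = 0.85), with KO 1 just inside the WT range. Nfil3, a factor upstream of Id2, had -0.22 (SE 0.38), and the lysosomal thioesterase Ppt1 0.42 (SE 0.25). The genes of this list with the most positive and the most negative value were Cadm1 and Cd24a, chosen after their values were seen. The adhesion molecule Cadm1 measured 48.8, 272 and 229 CPM in KO and 70.4, 22.3, 82.3 and 27.4 CPM in WT mice, with the low KO library again KO 1 (log2 fold change 1.86, SE 0.61, edgeR adjusted p = 0.805). Cd24a, a surface protein of cDC1 and of many other cells, measured 12.9, 1.83 and 1.25 CPM in KO and 9.36, 43.1, 11.1 and 24.3 CPM in WT mice, with KO 1 inside the WT range (log2 fold change -2.04, SE 0.87, edgeR adjusted p = 0.922).

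The cDC2 and monocyte-derived list had 13 tested genes, 5 positive and 8 negative, with a median of -0.30 and none called. For Sirpa, a cDC2 and macrophage receptor, the log2 value was 0.06 (SE 0.26), and for the factor Klf4 it was 0.10 (SE 0.35). The lectin Mgl2 measured 278, 33.8 and 200 CPM in KO and 48.8, 1022, 87.6 and 705 CPM in WT mice, so its groups overlapped over a wide range. Cd207 (langerin) measured 1.81, 0.854 and 1.76 CPM in KO and 6.91, 2.35, 4.68 and 5.52 CPM in WT mice (log2 fold change -1.71, SE 0.48, edgeR adjusted p = 0.736). The decoy receptor Il1r2 measured 33.2, 41.0 and 63.8 CPM in KO and 63.9, 142, 72.4 and 70.5 CPM in WT mice (log2 fold change -0.92, SE 0.34, edgeR adjusted p = 0.851).

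Of the other maturation genes 17 were tested, 9 positive and 8 negative, with a median of 0.02 and none called. WT 2, the highest library for Ccr7 and Fscn1, was also the highest for 8 of them, where it was so for 16.4% of all tested genes. KO 2 was the highest for 6 and KO 3 for 3, and their shares over all tested genes were not computed. The most abundant, Cd83, measured 408, 1294 and 793 CPM in KO and 331, 760, 534 and 431 CPM in WT mice (log2 fold change 0.69, SE 0.40). Cd274 (PD-L1) had 0.60 (SE 0.48) and the co-stimulator Cd86 0.02 (SE 0.25). The chemokines Ccl22 and Ccl17, chosen after their values were seen, were highest in WT 2, as Ccr7 was. Ccl22 measured 33.2, 6.79 and 9.15 CPM in KO and 6.32, 88.8, 15.6 and 25.2 CPM in WT mice, and Ccl17 measured 71.7, 4.92 and 10.4 CPM in KO and 2.70, 141, 6.90 and 74.3 CPM in WT mice.

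Of 9 tested genes of plasmacytoid dendritic cells, 6 were positive and 3 negative, with a median of 0.39. The sum was led by Bst2 (log2 fold change 0.61, SE 0.25) and Tcf4 (0.39, SE 0.20), which other cells also express, and Runx2 measured 30.3, 24.4 and 35.8 CPM in KO and 21.8, 16.9, 23.4 and 15.1 CPM in WT mice (log2 fold change 0.65, SE 0.22, edgeR adjusted p = 0.823). The defining gene Siglech was near the limit of detection, at 0.441 to 2.56 CPM in KO and 0 to 0.548 CPM in WT libraries. Genes of antigen presentation had 7 of 8 positive, with a median of 0.41. Cd74, the invariant chain, measured 6020, 49980 and 34040 CPM in KO and 6910, 24070, 11000 and 13420 CPM in WT mice, and H2-Ab1 and H2-Aa, chains of MHC class II, had log2 fold changes of 0.66 (SE 0.68) and 0.81 (SE 0.69). For Cd74 KO 2 and KO 3 lay above and KO 1 below all WT mice, the same arrangement as for Irf8. Among the ligands and partners of the 10 genes, 6 of 9 tested were positive with a median of 0.08 and none called, and the highest were Actb, Junb and Jun, at -0.15 (SE 0.18), 0.08 (SE 0.29) and 0.13 (SE 0.22).

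**Figure D5:**
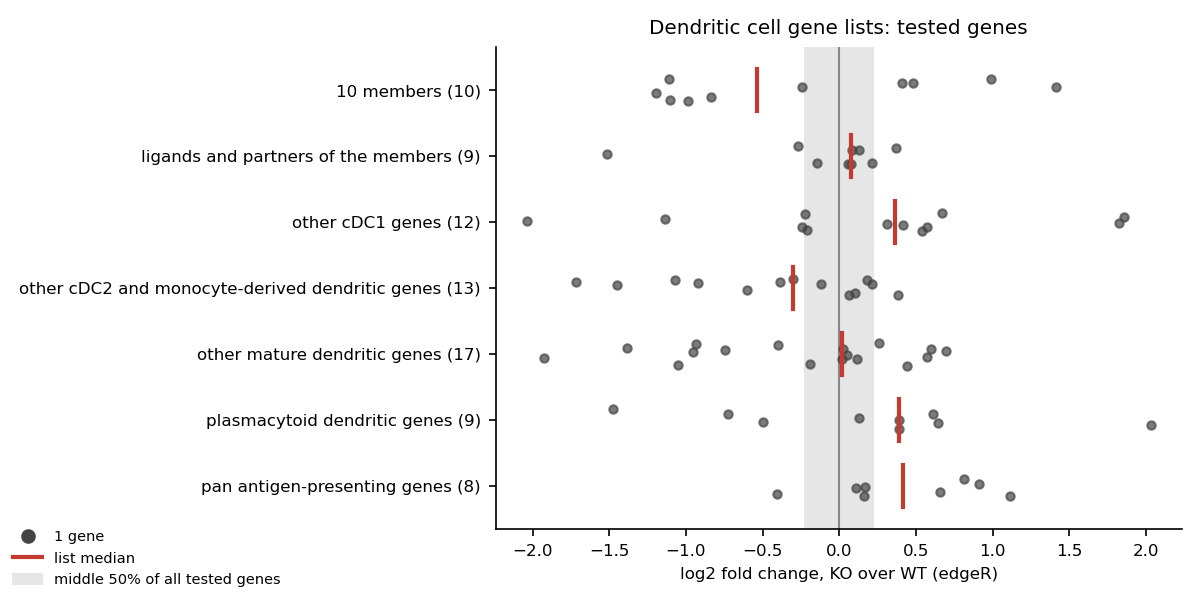
Log2 fold change, KO over WT, of every tested gene (points) of the 10 members and of 6 lists of related genes, with the list median in red and the middle 50% of all tested genes in grey (-0.22 to 0.22). The medians run between -0.54 for the 10 genes and 0.41 for antigen-presentation genes, and single genes of each list lie on both sides of 0.

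B cells, which use Irf8, were read in the same way. Ighm measured 192, 422 and 237 CPM in KO and 203, 36.6, 201 and 49.4 CPM in WT mice, and Cd79b 9.63, 41.0 and 27.4 CPM in KO and 19.3, 13.3, 14.7 and 6.72 CPM in WT mice. Cd79a and Pax5 were at or near 0 in every library, at 0.292 CPM or less, and the part of B cells in the Irf8 values was not tested. Neutrophil markers, led by Csf3r and Mmp9, summed to 129 to 190 CPM in KO and 143 to 239 CPM in WT libraries, with 6 of 7 tested genes negative, none called, and Ly6g at 0 in all. Mast cell markers, led by Kit and Tpsb2, summed to 3.28 to 8.60 CPM in KO and 5.20 to 17.9 CPM in WT libraries.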

How the data were processed

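RNA of sorted tumour macrophages from 3 KO and 4 WT mice was measured by polyA RNA sequencing with a SMART-seq kit, per the labels' protocols. The authors deposited raw read counts per gene, as whole numbers, with library totals of 22449772 to 30483733. DESeq2 1.24.0, BWA 0.7.12, FastQC 0.11.5 and cutadapt 1.15 are named with the build GRCm38, per the submitters' processing notes, without roles. The counting program and strand setting were not given in the sources used here. If BWA made the alignments, reads across exon junctions would be undercounted, which was not tested.

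Gene symbols, coordinates and exon lengths came from GENCODE M21 (GRCm38), which matched 53274 of 53379 identifiers. The 16 rows with an identifier but no symbol carried 0.000338% of counts and stayed in the fit. The counts were fitted with edgeR 4.0.16 (R 4.3.3): default filter by group (16234 genes left), TMM scaling, robust quasi-likelihood F test, genotype as the only term, Benjamini-Hochberg adjustment over all tested genes and a threshold of 0.05. Fold changes are KO over WT, and each SE was taken as the absolute log2 fold change over the root of F. Log2 CPM used a prior count of 2. The fit estimated a common biological coefficient of variation of 42.9%. The test was checked on simulated counts.

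Libraries of a group differed far beyond sampling noise (chi-square of at least 29.5 per degree of freedom), so none was treated as a repeat. That each library is a separate mouse comes from the labels. The p-values weigh the difference between KO and WT against the spread between these mice. Likeness of pattern, order of levels and lists are descriptions with no test. The named genes were the 10 members, Gpr65, the 3 highest genes of each dendritic list (or any called), the 2 highest of each list of other cells with Adgre1, Itgam, Ptprc, Cd3e and Cd8a, and the 2 genes nearest in pattern to each member, with a floor of 1 on average log2 CPM and a variance within 2-fold. Any others were named once their values had been seen. The members and lists were chosen with earlier results of these data known. Alternatives were 3 other scalings, 2 other filters, DESeq2 1.42.0, limma 3.58.1 (voom with quality weights), edgeR run without the robust option, a block for mouse number, leaving out each library, and an adjusted p of 0.1.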

Additional observations from a re-analysis of the deposited data

Results flagged for a closer look

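Dixon's ratio, the distance of an extreme value to its neighbour divided by the full spread, was computed for 70 sets of 4 WT values. The sets were single genes and the sums of gene lists, which hold some of the same genes. The ratio passed the critical value for 2 sets, and about 1 in 20 would do so by chance. Both sets are single genes, and both genes are mast cell markers. WT 1 was lowest for Kit (0.888), at 4.87 CPM where the other WT mice lay between 11.6 and 12.5 CPM, and KO mice measured 0, 3.99 and 6.58 CPM. WT 4 was highest for Tpsb2 (0.961), at 4.31 CPM where the other WT mice had at most 0.166 CPM, and KO mice had 0.615, 0.0407 and 1.29 CPM. None of the 10 dendritic cell genes was set apart in this way in the WT mice, and the 3 KO mice were too few to examine.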

How the results depend on the processing

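Over 17 alternatives, 167 of 170 fold changes of the 10 genes kept their direction and their side of the threshold. By limma voom, Flt3 was -1.83, Ccr7 -0.27, Batf3 1.32 and Clec9a 2.04, none passing. Xcr1 passed by DESeq2, which made the number of the 10 called 1, against 0 by edgeR. Zbtb46 turned positive without KO 2 (0.208) and without WT 2 (0.360), and it ran between -1.44 and 0.36 with 1 library left out. Leaving out 1 library moved group means widely: the KO mean of Flt3 was 1.92 CPM without KO 1, against 4.11 CPM, that of Zbtb46 3.19 CPM, against 7.24 CPM, and the WT mean of Ccr7 33.9 CPM without WT 2, against 67.8 CPM. Without a scaling factor the median log2 fold change of all genes was -0.108, and no gene of the 10 changed sign.

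The number of all genes called was 6 (4 higher, 2 lower). It was 11 (7 higher, 4 lower) with no filter and 131 (50 higher, 81 lower) by DESeq2. It was between 3 and 14 with 1 library left out, 2 to 9 higher and 1 to 5 lower, the highest without KO 1 and the lowest without KO 2. With RLE size factors and with upper quartile scaling, 1 was lower. The causes were not tested. Same-numbered libraries deviated from their group means with correlations of 0.0509 to 0.0882 over 3 pairs, and 1 of the 3 KO libraries correlated best with its own number, so the numbers were not taken as pairs. With the mouse number as a replicate block 1 gene was called, 0 higher and 1 lower, and no gene of the 10. Depth limits Clec9a most, with 3 counts in WT 1.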
